A study of Drosophila melanogaster with 3 samples.

Results

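The nuclear genes for subunits of the mitochondrial respiratory chain are described here by the regions found near them in ChIP-seq of Nautilus (nau), the fly member of the MyoD family of basic helix-loop-helix (bHLH) factors. They were taken by symbol from the protein-coding genes of the fly annotation, as names that begin with ND-, SdhA to SdhD, UQCR-, COX and a digit, or ATPsyn. The rule gave 87 of 13945 genes: 40 of complex I, 7 of complex II, 9 of complex III, 16 of complex IV and 15 of complex V. By arm, 20 lay on 3L, 19 on 3R, 17 on 2R, 16 on 2L, 13 on X and 2 on chromosome 4. Among them were 24 genes whose symbol marks them as a duplicate of another subunit gene (such as COX4L beside COX4), and 63 others. How reads that fit both a duplicate and its parent gene were placed is not stated in the sources.

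ChIP-seq, the sequencing of DNA from immunoprecipitated chromatin, was done on whole embryos of both sexes, collected between 4 and 24 h. All 3 libraries, biological replicates of 1 group, came from a transgenic line that stably expresses nau with GFP fused to its C terminus, and chromatin was precipitated through the GFP tag. No group without the transgene was used here, so places in the genome are set beside each other and not conditions. Whole embryos mix all tissues, so that binding in few cells and weak binding in many cells cannot be told apart. Each library has a list of 30000 regions with a signal value. The series also has a list of 3767 regions that passed the irreproducible discovery rate (IDR) threshold. These are the 3767 strongest of the pooled list. The library lists and the pooled list are labelled as peaks and background for input to IDR. A region far down them may thus be background and not binding. A summit is the point of highest signal in a region. How many reads each library holds is unknown here, so the depth behind a rank is unknown too.

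The respiratory chain carries electrons through complexes I to IV of the inner mitochondrial membrane and pumps protons. ATP synthase, complex V, uses the proton gradient to make ATP. Most subunits are encoded in the nucleus and imported, and a few are encoded by mitochondrial DNA. Muscle is rich in mitochondria, and a MyoD-family factor acts in the cells that form muscle.

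Of the 87 respiratory chain genes, 17 had an IDR summit in their window, which is the gene itself and the 2 kb before it. This was 19.5% (95% Wilson interval 12.6 to 29.1), and over all protein-coding genes it was 17.9%, or 2497 genes. The share of respiratory chain genes was thus near that of all genes. A summit within 500 bp of an annotated transcription start site (TSS) of the gene was found for 8 of the 87 genes, or 9.20% (4.73 to 17.1), and for 10.6% of all genes. Those 8 were ND-13B, ND-24 and ND-B22 of complex I, COX5A, COX5B, COX7B and COX7C of complex IV, and ATPsynC of complex V. For the other 9 genes the summit lay farther away, in an intron or upstream, and for 8 of the 9 another gene had the nearest TSS.

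Respiratory chain genes are short, with a median length of 1100 bp, where all protein-coding genes have 2166 bp. Long genes have a larger window for a summit. Among genes up to 2 kb long, a comparison chosen after the data were seen, 12 of 69 respiratory chain genes had an IDR summit in the window, or 17.4% (10.2 to 28.0), and 8.94% of all such genes did. Within 500 bp of a TSS it was 7 of 69, or 10.1% (5.0 to 19.5), and 5.57% of all genes up to 2 kb long. The intervals cover counting error alone, and genes are not replicates of the experiment.

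By complex, complex I had 6 of 40 genes with an IDR summit in the window and complex II had 1 of 7. Complex III had 0 of 9, which allows a share of up to 29.9% at the upper end of the Wilson interval. Complex IV had 7 of 16 genes, or 43.8% (23.1 to 66.8), and complex V had 3 of 15. Over all protein-coding genes it was 17.9%. Within 500 bp of a TSS it was 4 of 16 genes in complex IV, or 25.0% (10.2 to 49.5), and 10.6% of all genes. Complex I had 3 of 40 so near, complex V 1 of 15, and complexes II and III 0. The 7 genes of complex IV held 7 distinct summits: COX5B and its neighbouring duplicate COX5BL shared 1, COX7C and its duplicate COX7CL shared 1, and COX7C and COX7AL2 held 2 each. These counts are small and their intervals wide, and the difference between complexes was not tested.

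**Figure D1:**
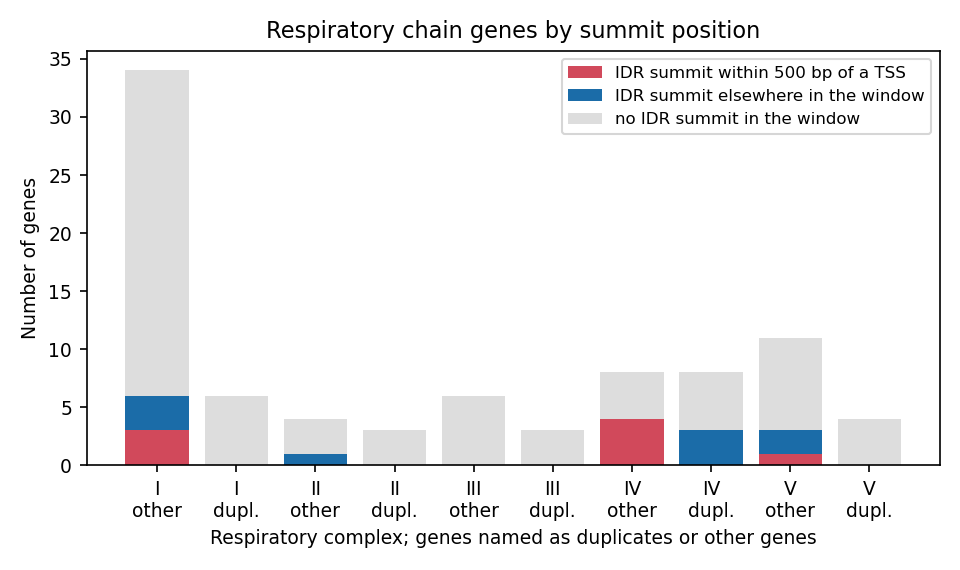
Number of respiratory chain genes in each complex (vertical axis, genes), separately for genes named as duplicates and for the others, by whether an IDR summit lay within 500 bp of a TSS of the gene, elsewhere in its window, or nowhere in it. Complex III has no coloured part, and the 3 duplicates with a summit are all in complex IV and have none within 500 bp of their own TSS.

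Most of these summits were in the weaker part of the IDR list. The 17 genes held 22 distinct summits with ranks from 852 to 3590 of 3767 by signal value, and a median rank of 2437, where the whole list has a median of 1884. Some of the regions overlap, namely both in ND-39 and those ranked 2002 and 2720 in ND-15, so the 22 are not all independent. Of the 17 genes, 4 had their strongest summit in the stronger 1883 regions, or 23.5% (9.56 to 47.3), where it was 62.3% of all genes with a summit. Those 4 were COX7C, COX7AL2, ATPsynC and ND-39. Median rank of the strongest summit per gene was 2447 in the 17 respiratory chain genes and 1396 in all 2497 genes with a summit. The comparisons per gene were not limited by gene length. A longer gene has a larger window and can hold more summits, of which the strongest was taken.

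The sequences below are shown for the 6 members with the strongest summits among those that can be printed here, to let the summits at a gene's own start be compared with those at a nested or neighbouring gene. Each runs 5′ to 3′ on the plus strand of dm6 (Release 6 of the genome, RefSeq sequence), up to 50 bases either side of the summit, which is base 51. Capitals mark any E-box, CANNTG, the site that bHLH dimers bind. The other words searched (TATCGATA, GGTCACACT, GAGAGAG and GCGCATGCG, described below) are absent from these stretches. The windows were shortened where they would hold over 30 bases of annotated untranslated sequence, and that of ATPsynC is left out for this reason. The COX7C summits, which include the strongest of all, are not shown either, and 1 summit is shown per gene.
COX7AL2, upstream, chr2L:2199300-2199400: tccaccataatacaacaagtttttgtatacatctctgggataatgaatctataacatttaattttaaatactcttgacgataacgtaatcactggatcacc
ND-39, intron, at the TSS of ZnT77C, chr3L:20493479-20493579: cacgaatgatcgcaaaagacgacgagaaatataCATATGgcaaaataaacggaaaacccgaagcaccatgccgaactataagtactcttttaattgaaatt
ND-15, intron, at Gs1, chr2L:131850-131950: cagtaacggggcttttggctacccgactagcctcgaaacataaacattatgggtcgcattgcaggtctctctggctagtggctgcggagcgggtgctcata
ND-24, own promoter, chrX:17632153-17632253: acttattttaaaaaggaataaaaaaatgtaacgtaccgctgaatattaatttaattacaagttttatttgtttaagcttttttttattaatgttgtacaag
ND-B16.6, upstream, at the TSS of kdn, chrX:6352229-6352311: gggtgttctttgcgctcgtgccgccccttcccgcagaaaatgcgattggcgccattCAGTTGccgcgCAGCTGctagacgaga
ND-13B, own promoter, chr3L:10694088-10694188: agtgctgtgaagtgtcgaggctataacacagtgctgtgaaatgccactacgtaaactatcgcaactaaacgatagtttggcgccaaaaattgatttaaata
Of these 6 stretches, 2 held an E-box, those at ND-39 and ND-B16.6. At ND-13B a CAGCTG lay within 100 bp of the summit but outside the stretch shown. The stretch at ND-B16.6 held the form CAGCTG, which MyoD binds, starting 17 bp from the summit.

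Complex I takes electrons from NADH. ND-24 was the 1 of its 7 core subunits in the nucleus (ND-75, ND-51, ND-49, ND-30, ND-24, ND-23 and ND-20) with an IDR summit. ND-24 (FBgn0030853), which carries an iron-sulphur cluster in the NADH-oxidising part, had its summit 114 bp inside the gene, in an intron, in a region at X, 17631973 to 17632432. The summit ranked 3069, 2755 and 1920 in replicates 1, 2 and 3, so that all libraries placed it within their own 3767 strongest regions, at a mean rank of 2581 ± 594 (SD, n = 3). A TSS of corolla, a gene of the meiotic synaptonemal complex, lay within 500 bp as well.

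The accessory subunits ND-13B (FBgn0047038) and ND-B22 (FBgn0032511) had summits 30 bp and 12 bp from their TSS, with no other gene's TSS within 500 bp. The ND-13B region at 3L, 10694044 to 10694205 ranked 1652, 6641 and 3098 in replicates 1, 2 and 3, and the ND-B22 region at 2L, 13370808 to 13371267 ranked 1454, 3574 and 4850. Replicate 2 for ND-13B and replicate 3 for ND-B22 thus placed them outside their own 3767 strongest. Mean ranks were 3797 ± 2567 for ND-13B and 3293 ± 1715 for ND-B22 (SD, n = 3 each), a spread too wide to order these 2 genes and ND-24.

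In the other 3 complex I genes, every summit was nearest to the TSS of another gene. ND-15 (FBgn0031228), an accessory subunit, is annotated over 41305 bp, the longest of the 87, and held 5 summits in introns between 3224 and 19860 bp from its TSS. The 1 that every library placed among its own 3767 strongest had ranks of 2037, 3309 and 3490 in replicates 1, 2 and 3. The nearest TSSs were those of Gs1, a glutamine synthetase (3 summits, 22 to 2509 bp away), CG3164 (33 bp) and CG13694 (1462 bp). ND-39 (FBgn0037001) held 2 summits in an intron, 39 and 255 bp from the TSS of the zinc transporter gene ZnT77C. The stronger of them, at 3L, 20493483 to 20493657, ranked 1539, 2203 and 1987 in replicates 1, 2 and 3, and the weaker 2976, 2912 and 2730, so that every library kept both within its strongest 3767. ND-B16.6 (FBgn0029868) had its summit 1878 bp upstream and 3 bp from the TSS of kdn, the citrate synthase of the tricarboxylic acid cycle. It ranked 6620, 1763 and 2635 in replicates 1, 2 and 3, so that replicate 1 stood lowest.

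Complex II oxidises succinate and holds no subunit made in the mitochondrion. SdhC (FBgn0037873), a membrane anchor subunit, had a summit 1950 bp upstream at 3R, 11211569 to 11212028, where Tctp was the gene with the nearest TSS, 1552 bp away. It ranked 3363, 2877 and 10404 in replicates 1, 2 and 3, and 3342 in the IDR list. Replicate 3 was far below the other libraries at this point, but its best rank anywhere in the SdhC window was 3423. SdhA, the flavoprotein, and SdhB, the iron-sulphur subunit, had none. Complex III passes electrons from ubiquinol to cytochrome c, and none of its 9 genes by this rule had an IDR summit, UQCR-C1 and UQCR-C2, the core proteins, included.

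Complex IV, cytochrome c oxidase, held the 2 strongest summits of the 87 genes, at COX7C and COX7AL2. COX7C (FBgn0040773) had a summit 1946 bp upstream at 2R, 10046240 to 10046543, of IDR rank 852 and a signal value of 375. The 3 libraries ranked it 836, 881 and 967, a mean of 895 ± 66.6 (SD, n = 3), the smallest SD among the 18 summits listed in all libraries. COX7C also was the gene with the nearest TSS. A second summit, 137 bp inside COX7C and 129 bp from the TSS of oys, ranked 1848, 11122 and 1799 in replicates 1, 2 and 3, so that replicate 2 stood apart at this promoter but not at the upstream summit. Within 500 bp of the TSS, the best rank in replicate 2 was 4306.

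COX7AL2 (FBgn0085201), named as a duplicate of COX7A, held 2 summits for which it had the nearest TSS, 1438 and 635 bp away. The stronger, upstream at 2L, 2199254 to 2199494, ranked 1193, 1439 and 852 in replicates 1, 2 and 3, and the weaker, in an intron, ranked 2903, 1622 and 2880. Each library thus placed both within its own 3767 strongest. The other duplicates with a summit in their window, COX5BL and COX7CL, had it 1836 and 1858 bp upstream of their TSS, at the promoters of COX5B and COX7C.

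COX5A, COX5B and COX7B, nuclear-encoded subunits around the catalytic core, had a summit at a promoter shared with another gene. For COX5A (FBgn0019624) it lay 69 bp from its TSS and 8 bp from that of glo, an RNA-binding protein gene, at 3R, 11819198 to 11819657. It ranked 4032 and 2807 in replicates 2 and 3, while replicate 1 listed no summit within 100 bp but one of rank 3313 within 500 bp of the TSS. For COX5B (FBgn0031830) it lay 205 bp upstream and 93 bp from the TSS of IFT52, a gene of intraflagellar transport, at 2L, 6557365 to 6557824. It ranked 2026 and 2514 in replicates 1 and 3, and replicate 2 listed none within 100 bp but one of rank 1910 within 500 bp of the TSS. For COX7B (FBgn0040793) it lay 67 bp upstream, with a TSS of Sec3 within 500 bp, at 3L, 17425180 to 17425639, with ranks of 2434, 14385 and 2803 in replicates 1, 2 and 3. None of these 3 summits was matched within 100 bp among the 3767 strongest of every library. Counting any library summit within 500 bp of the TSS, COX5B, ND-24 and ATPsynC were the 3 of the 8 genes that had one among the 3767 strongest of each library.

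In complex V, ATPsynC (FBgn0039830), the subunit of the rotating membrane ring, had a summit 34 bp from its TSS, in the 5′ UTR, at 3R, 31219295 to 31219754. It ranked 2180, 941 and 1890 in replicates 1, 2 and 3, a mean of 1670 ± 648 (SD, n = 3), and was the highest in the IDR list (rank 1488) of the 8 summits at members' own promoters. ATPsynD (FBgn0016120), of the peripheral stalk, and ATPsyndelta (FBgn0028342), of the central stalk, had theirs 1566 and 1716 bp upstream. The ATPsynD summit ranked 1996, 11633 and 2081 in replicates 1, 2 and 3, and cdi had the nearest TSS, 836 bp away. The best rank of replicate 2 anywhere in the ATPsynD window was 4250. The ATPsyndelta summit ranked 9788 and 3838 in replicates 2 and 3 and was not listed within 100 bp in replicate 1, so that no library placed it among its own 3767 strongest. Elsewhere in the ATPsyndelta window replicate 1 had a summit of rank 1264. ATPsynbeta, the catalytic subunit of the F1 head, had no IDR summit.

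**Figure D2:**
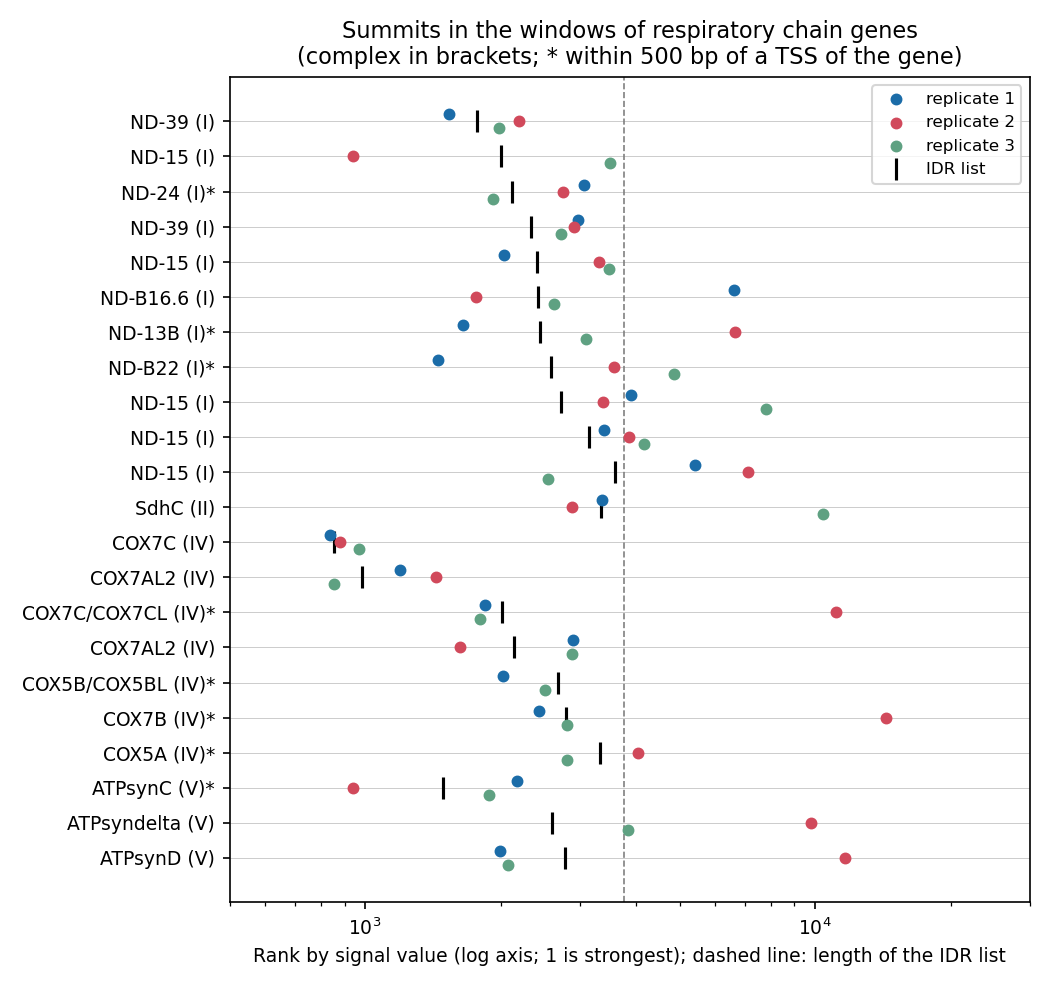
Rank by signal value (horizontal log axis, 1 is strongest) of each of the 22 summits in the replicates' own lists (coloured points) and in the IDR list (black bars), 1 row per summit, with the complex in brackets and an asterisk where the summit is within 500 bp of a TSS of the gene. Points right of the dashed line lie outside a library's 3767 strongest regions, and a missing point is a library with no summit within 100 bp. The summits at COX7C (upstream) and COX7AL2 (upstream) have ranks of 836 to 1439 in all libraries, and COX7B reaches 14385 in replicate 2.

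Across the 22 summits, 8 were matched among the 3767 strongest of all 3 libraries, or 36.4% (19.7 to 57.0), where it was 51.5% of all IDR summits. A further 9 were matched in 2 libraries, 4 in 1 library and 1 in none. At the members' own promoters it was 2 of 8, ND-24 and ATPsynC, where it was 50.6% of all IDR summits within 500 bp of any TSS. At the other places it was 6 of 14, which include both ND-39 summits, whose regions overlap. Replicate 2 held 13 of the 22 among its own strongest, replicate 1 held 16 and replicate 3 held 17. Over the whole IDR list the libraries were alike, at 76.0% for replicate 1, 75.0% for replicate 2 and 77.9% for replicate 3.

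Library by library, the share of respiratory chain genes was again near that of all genes, with no limit on gene length. In the 3767 strongest regions of replicate 1, 18 of the 87 genes had a summit in the window, or 20.7%, and 19.2% of all genes did. In replicate 2 it was 13 genes, or 14.9%, and 18.6% of all genes, and in replicate 3 it was 18 genes, or 20.7%, and 19.0% of all genes. The mean was 16.3 ± 2.89 genes (SD, n = 3 libraries), which is 18.8% ± 3.32, and 18.9% ± 0.297 for all genes. The difference between these means is smaller than the spread between libraries. All 3 libraries named 9 of the same respiratory chain genes, or 10.3%, and 13.3% of all genes.

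Most summits were not at the start of the respiratory chain gene itself. Of the 22 summits, 14 lay within 500 bp of some TSS, or 63.6% (43.0 to 80.3), where it was 38.1% of all IDR summits. The 22 were chosen by windows of genes and the 2 kb before them, which brings some nearness to a TSS. All IDR summits are thus not a like set. A TSS of the respiratory chain gene itself lay within 500 bp of 8 of the 22, or 36.4%. Among the summits kept when a library was left out, this share was 20.0% of 10 without replicate 1, 46.2% of 13 without replicate 2 and 30% of 10 without replicate 3. Of those 8, the TSS of another gene was within 500 bp of 5: corolla, glo, IFT52, Sec3 and oys. The 3 with no other TSS so near were at ND-13B, ND-B22 and ATPsynC. Genes outside the respiratory chain had the nearest TSS for 14 of the 22.

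The remaining 70 genes had no IDR summit, and 36 of the 87 had no summit of any rank in their window in any of the 3 full lists of 30000, or 41.4% (31.6 to 51.9), where it was 45.9% of all genes. Complex I had 18 such genes, complex V 8, complex IV 5, complex III 3 and complex II 2. Of the genes without an IDR summit, 15 had one in all 3 full lists. The 10 highest of these by mean rank began with ATPsynbeta, whose best window ranks were 5472, 4099 and 3698 in replicates 1, 2 and 3, a mean of 4423 ± 930 (SD, n = 3). ND-SGDH followed with a mean rank of 4473 ± 921 and ND-MNLL with 5959 ± 1004, then SdhB with 6822 ± 1825, UQCR-14 with 6967 ± 2829 and ND-13A with 7016 ± 4031. UQCR-C2, ND-ASHI, ND-B14.7 and UQCR-11L had means of 7622 to 11615. The ranges of ranks over the 3 libraries overlap between neighbours in this order. ND-ASHI, an accessory subunit of complex I, ranked 443 in replicate 2 but 8583 and 15219 in replicates 1 and 3, and its high rank was thus a feature of 1 library.

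The weaker parts of the lists, which may include background regions, held more promoters of respiratory chain genes that are not duplicates. With the 3767 strongest regions of each library, 14.3% ± 4.20 of the 63 genes had a summit within 500 bp of a TSS, 1.39% ± 2.41 of the 24 duplicates, and 11.4% ± 0.0745 of all genes (SD, n = 3 libraries). With all 30000 regions it was 45.0% ± 5.10 of the 63 genes, 13.9% ± 4.81 of the duplicates and 33.5% ± 0.253 of all genes. With the 1000 strongest regions it was 1.06% ± 1.83 of the 63 genes, 0% of the duplicates and 3.81% ± 0.100 of all genes. At 1000 regions it was 0%, 3.17% and 0% of the 63 genes in replicates 1, 2 and 3, and 3.92%, 3.74% and 3.76% of all genes, so that replicate 2 was near the share of all genes and the counts are very small. At 30000 regions the 63 genes stood above all genes in 3 of 3 libraries, but no duplicates were left out of all genes. With the duplicates kept, the share of the 87 genes was 36.4% ± 4.35. It was 34.5%, 33.3% and 41.4% in replicates 1, 2 and 3, against 33.2%, 33.7% and 33.6% of all genes. At 3767 regions the 63 genes stood above in replicates 1 and 3 (15.9% and 17.5%) and below in replicate 2 (9.52%).

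**Figure D3:**
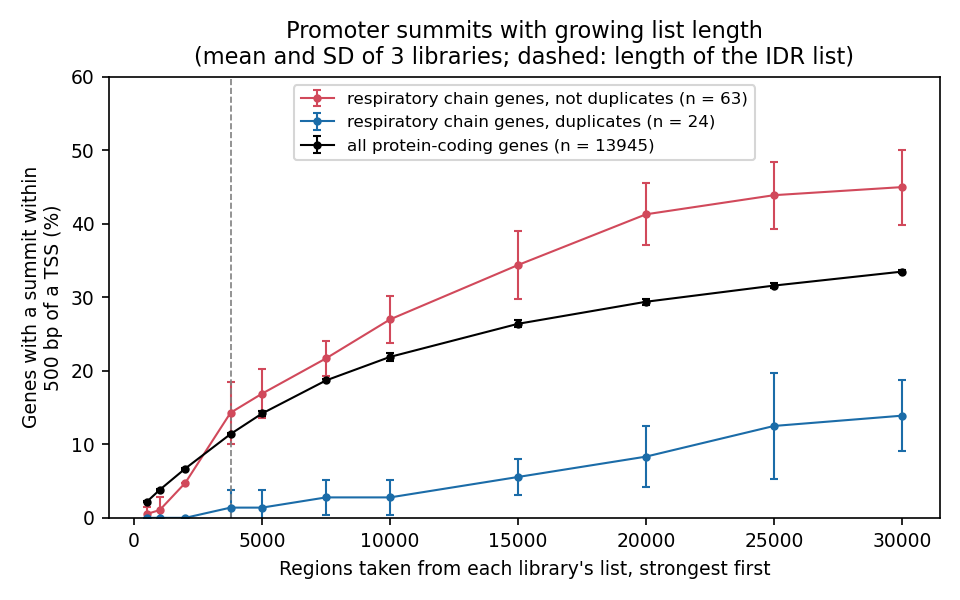
Percentage of genes with a library summit within 500 bp of a TSS (vertical axis) as more regions of each library's list are taken, strongest first (horizontal axis), for respiratory chain genes that are not duplicates, for duplicates and for all protein-coding genes; points are means and bars SDs of 3 libraries. At 30000 regions the means are 45.0%, 13.9% and 33.5%, and at 1000 regions 1.06%, 0% and 3.81%. All 87 respiratory chain genes together, not drawn, have a mean of 36.4% at 30000 regions.

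Binding words were sought on both strands within 100 bp of a summit, and within 100 bp of the annotated gene start. CAGCTG lay at 4 of the 22 respiratory chain summits, or 18.2% (7.31 to 38.5), and at 15.1% of all IDR summits. The 4 were at ND-B16.6, ND-13B, ND-B22 and the weakest of those in ND-15. Any E-box lay at 13 of the 22, or 59.1%, and at 66.0% of all. TATCGATA, the DNA replication-related element (DRE), lay at 0 of 22 and 1.59% of all, and GAGAGAG, the word of GAGA factor, at 0 of 22 and 6.37% of all. GGTCACACT, the core of the Ohler 1 word of promoters, lay at 1 of 22, that of COX7B, and at 0.823% of all. GCGCATGCG, the word of the NRF1 family, lay at 0 of 22 and 0.159% of all. A count of 0 of 22 allows a share of up to 14.9% by the Wilson interval, and at 100 bp the interval of each of the 6 words held the share of all summits. Of the 8 summits at the genes' own promoters, 4 held any E-box and 2 held CAGCTG. Among all IDR summits within 500 bp of any TSS it was 64.5% and 16.2%. The window mattered for the Ohler 1 core, which within 250 bp lay at 18.2% of the 22 summits and at 2.15% of all IDR summits. Of the 22, 14 lay within 500 bp of some TSS, so all IDR summits are not a like set for this promoter word. Within 100 bp the core lay at 1.81% of the IDR summits within 500 bp of any TSS, against 0.823% of all. CAGCTG lay at 9.09% of the 22 within 50 bp (8.73% of all) and at 31.8% within 250 bp (29.7% of all). With the summits kept when a library was left out, CAGCTG lay at 10% without replicate 1, 7.69% without replicate 2 and 10% without replicate 3. These are shares of 10, 13 and 10 kept summits, so each rests on very few. No share of all kept IDR summits is given beside them.

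Gene starts gave larger counts. CAGCTG lay within 100 bp of the start of 18 of the 63 respiratory chain genes that are not duplicates, or 28.6% (18.9 to 40.7), of 1 of the 24 duplicates, and of 13.8% of all protein-coding genes (13.2 to 14.4). Any E-box lay at 58.7% of the 63 (46.4 to 70.0), at 58.3% of the duplicates and at 63.7% of all genes. The Ohler 1 core lay at 12 of the 63, or 19.0% (11.2 to 30.4), at 0 of the duplicates and at 5.29% of all genes. DRE lay at 6 of the 63, or 9.52%, at 0 of the duplicates and at 7.84% of all genes, and GAGAGAG at 0 of the 63 and 3.69% of all.

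CAGCTG at the gene start and an IDR summit within 500 bp of a TSS fell on the same respiratory chain gene once. Of the 18 genes with the word, 1 had such a summit, ND-13B, or 5.56% (0.988 to 25.8), and of the 45 without it 7 did, or 15.6% (7.75 to 28.8). Over all genes it was 14.7% of the 1921 with the word and 9.94% of the 12024 without it. Genes with CAGCTG and no promoter summit included ND-75, ND-51, UQCR-C1, SdhD, ATPsyngamma and ATPsynO. The intervals of the respiratory chain genes overlap, and the difference was not tested. With the Ohler 1 core it was 3 of 12, COX5A, COX5B and COX7B, or 25.0% (8.89 to 53.2). Without the core it was 5 of 51, or 9.80% (4.26 to 21.0). Over all genes it was 14.1% of the 738 with the core and 10.4% of the 13207 without it. Intervals of the respiratory chain genes with and without the core overlap, and the difference was not tested.

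**Figure D4:**
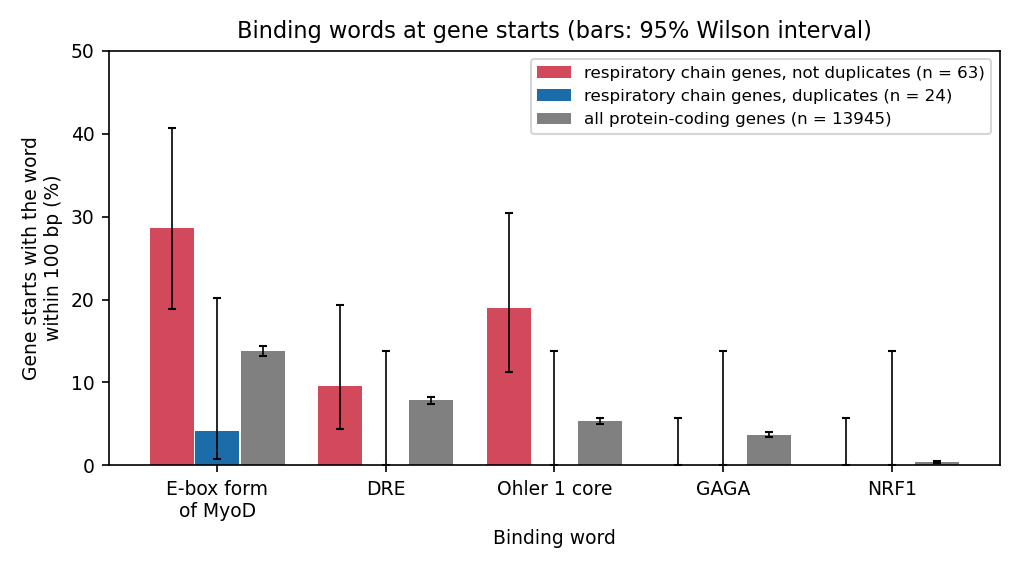
Percentage of gene starts with each binding word within 100 bp on either strand (vertical axis), for respiratory chain genes that are not duplicates, for duplicates and for all protein-coding genes; bars show 95% Wilson intervals, which cover counting error alone. CAGCTG, labelled as the E-box form of MyoD, stands at 28.6%, 4.17% and 13.8%, and the Ohler 1 core at 19.0%, 0% and 5.29%. A word at a gene start does not show which factor binds there.

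Genes of oxidative metabolism whose names fall outside the rule were counted in the same window, from a list of 32 symbols, all matched to the annotation. Of these, 9 had an IDR summit, 8 of them within 500 bp of a TSS, where the shares over all genes were 17.9% and 10.6%. For kdn, the summit near the TSS is the one already counted for ND-B16.6. The list was chosen with earlier results of these data known. Among 9 respiratory chain genes with other names 4 did: Cyt-c-d and Cyt-c-p, which encode the electron carrier cytochrome c, blw, the alpha subunit of ATP synthase, and RFeSP, the Rieske protein of complex III. Cyt-c1, levy, cype, sun and ox had none. The Cyt-c-d summit, at 2L, 16716132 to 16716540, held rank 88 of the IDR list and ranks of 176, 60 and 74 in replicates 1, 2 and 3, but CG31808 had the nearer TSS, at 141 bp against 375 bp. The stronger Cyt-c-p summit, 940 bp from its TSS, ranked 506, 384 and 592 in replicates 1, 2 and 3. Both ranked above every IDR summit of the 87 genes in each library.

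Of 13 genes of the tricarboxylic acid cycle and pyruvate dehydrogenase, 4 had a summit: Idh3g, an isocitrate dehydrogenase subunit, kdn, Ogdh and ScsbetaA. That of Idh3g lay 75 bp from its TSS at 3R, 25680568 to 25680903 and ranked 235, 312 and 243 in replicates 1, 2 and 3, a mean of 263 ± 42.3 (SD, n = 3). Idh3a and Idh3b, the partner subunits, had none. Of 4 carrier genes, the phosphate carrier Mpcp2 had a summit 5 bp from its TSS, with ranks of 2412, 1352 and 2851, and sesB, Ant2 and porin had none. None of 6 regulators of nuclear genes for mitochondria had an IDR summit (srl, ewg, ERR, TFAM, Dref and M1BP). Dref ranked 148 in replicate 1 and 222 in replicate 3 but 5569 in replicate 2.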

How the data were processed

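The authors deposited narrowPeak region lists on dm6: 1 per library, 1 from pooled replicates and 1 thresholded by IDR. Per the deposited read-me text, they derive from the library alignments and 1 further file; the labels name a possible control. The signal value per region is the authors' own, on an unstated scale, and ranks regions within a list. The sources used here do not name the aligner, the caller or the IDR threshold. Lists on dm3 were not used. Protein-coding genes came from Ensembl release 115 (BDGP 6.54, dm6 coordinates) on 6 chromosome arms, and all regions fell inside the RefSeq sequences of that build.

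The antibody label names nau and the description names anti-GFP, which was followed. A library summit matched an IDR summit within 100 bp, and the best rank within that distance or window was taken. No test was run, as there is 1 group. Members and lists were chosen with earlier results of these data known. Named genes were all members with an IDR summit and the 10 highest by mean rank without one. The assignment of summits to genes was tested on simulated data. Alternatives were the window, the assignment, list length, matching distance, word window and leaving out each library; the limit to genes up to 2 kb long was chosen after seeing the data. Figures were drawn with matplotlib 3.10.9, tables were handled with pandas 2.3.3, intervals came from scipy 1.17.1, and numpy 2.4.6 ran under Python 3.11.15.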

Additional observations from a re-analysis of the deposited data

How the results depend on the processing

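The count of 17 respiratory chain genes with an IDR summit was 8 with the gene body alone (10.1% of all genes), 8 within 500 bp of a TSS (10.6%), 10 by nearest TSS (15.3% of all genes) and 4 among its 1883 strongest regions (11.2%). By nearest TSS, 3 of the 10 had no IDR summit in the window (ND-24L, ND-B14.7 and UQCR-6.4L). It was 18 with 5 kb upstream (23.4% of all genes, which is above the 20.7% that 18 of 87 makes), 25 with the 10000 strongest pooled regions (29.4%), 14 without duplicates (17.9%) and 12 in genes up to 2 kb long (8.94%). When an IDR summit had to be among the strongest of both other libraries, leaving out each library gave 7 to 12 genes: 7 without replicate 1, 12 without replicate 2 and 8 without replicate 3, against 12.8%, 13.2% and 12.7% of all genes. Per library, the 1883 strongest regions gave a mean of 6 genes and 10000 regions 28.3, against 16.3. The mean of 16.3 was 18.8% of the 87 genes, where it was 18.9% of all genes. No share of all genes is given beside 6 and 28.3. A longer list can name more genes of any kind. The means of 6 and 28.3 thus do not show whether respiratory chain genes stood above or below all genes. The share of the 22 summits listed in all libraries was 81.8% at 100 bp, 40.9% at 50 bp and 100% at 200 bp, and 81.8% to 95.5% with a library left out. Any E-box lay at 27.3% within 50 bp (41.9% of all IDR summits) and at 100% within 250 bp (93.8%). The Ohler 1 core lay at 0% within 50 bp (0.478% of all) and 18.2% within 250 bp (2.15%). With a library left out, it lay at 0% to 7.69% of the 10 to 13 summits kept. The symbol rule took no assembly factors, so leaving them out gave no other value. No paired analysis was possible because there is 1 group. Unknown read depth limits what an absent summit shows.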
